A study of Mus musculus with 26 samples.

Results

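Nonpermissive supporting cells are the cells of the cultured mouse cochlea that did not turn on a hair cell reporter when Notch signalling was blocked. Organs taken from mice at postnatal day 1 were kept in culture for 48 h with DAPT, an inhibitor of gamma-secretase, the protease that releases the active part of Notch receptors. The culture medium also held EGF and FGF. Cells were dissociated with trypsin and sorted for a TdTomato reporter recombined by Lfng-CreER, and the nonpermissive fraction carried TdTomato without Atoh1-GFP, a reporter of hair cell fate. All samples labelled as nonpermissive at 48 h were taken, which gave 7 of the 26 samples of the series: 3 RNA, 2 ATAC and 2 H3K27ac CUT&RUN samples. The sort defined the cells by a Cre line driven by Lfng and by the lack of a GFP signal, so any TdTomato-positive cell type in which Lfng had been active could enter. The labels do not say whether the samples came from separate animals or pools, and they do not tie an RNA sample to an ATAC or H3K27ac sample. The spread between samples given here may therefore be technical, and the 3 assays were related gene by gene over means rather than within a sample.

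A gene is usually transcribed from a start site at which nucleosomes have been moved aside, and the transposase used in ATAC inserts adapters into such open DNA. H3K27ac, acetylation of lysine 27 on histone H3, is placed by the acetyltransferases p300 and CBP on nucleosomes flanking active promoters and enhancers. Open chromatin without H3K27ac is found at sites bound by insulator proteins, at primed enhancers and at promoters held inactive. Supporting cells surround the hair cells, carry gap junctions, secrete the tectorial membrane, and keep hair cell genes off in part through Notch.

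The RNA libraries held 2165338 to 3206754 expected counts, and their TPM values (a read share per transcript length) had rank correlations of 0.932 to 0.948 with each other over genes. The ATAC lists held 110121 and 126982 distinct peaks and the H3K27ac lists 93854 and 46148. H3K27ac library 1 covered 79.2 Mb and library 2 covered 22.5 Mb, and the names of the peaks inside both H3K27ac lists carry the number 2, although the lists differ in peak number, width and fold. Over the shared regions, the deposited fold enrichments of both libraries had a rank correlation of 0.74 for ATAC and 0.559 for H3K27ac. The lists hold weak peaks: the deposited q-value was over 0.05 for 37.2% and 14.9% of peaks in ATAC libraries 1 and 2. For H3K27ac libraries 1 and 2 it was so for 0.00852% and 31.2%. The depth of sequencing behind the peak lists is unknown.

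A region was counted as shared where peaks of both libraries of an assay overlapped by at least 1 base. It spans all of these peaks, so it also holds bases that lie in a peak of 1 library only. There were 52835 shared ATAC regions, with a median width of 444 bases and 27.4 Mb in all, and 24422 shared H3K27ac regions, with a median width of 1261 bases and 37.7 Mb in all. The genes analysed were 16782 protein-coding genes with a start in the reference table (GRCm38.p6, the mm10 assembly), which is 77.6% of the RefSeq protein-coding genes on chromosomes 1 to 19 and X. A gene start was called open or acetylated where a shared ATAC or H3K27ac region lay within 1 kb of it. By these rules 59.9% of starts were open, 37.9% were acetylated, and 59.8% of genes had a mean of at least 1 TPM.

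Genes whose start was both open and acetylated carried most of the RNA of the genes analysed. They held 78.2%, 82.0% and 79.5% of the summed TPM of these genes in RNA libraries 1, 2 and 3, and 52.4%, 44.7% and 51.8% of the TPM of all identifiers, of which the genes analysed held 67.0%, 54.5% and 65.1%. There were 6169 such genes, 96.1% of which reached a mean of 1 TPM, and their median was 28.6, 15.0 and 18.0 TPM in the 3 libraries. The 2086 genes with an open start and no H3K27ac peak in either library had medians of 1.96, 0.58 and 1.02 TPM, and 55.5% of them reached 1 TPM. The order of these groups was the same in each of the 3 RNA libraries. An intermediate group of 1792 genes, open and with an H3K27ac peak in 1 library, had medians of 13.0, 5.81 and 8.16 TPM. The 5183 genes with no peak of either assay had a median of 0 TPM in every library, and 15.3% of them reached 1 TPM. A further 106 genes were acetylated with no ATAC peak, and their medians were 18.6, 11.8 and 16.3 TPM. Only 29 of the 106 had a RefSeq promoter within 1 kb of the start used, against 5836 of the 6169 open and acetylated genes. For most of the 106 the start used may thus lie away from the promoter, and its part in this state was not tested. The remaining 1446 genes had peaks that were not shared, such as an ATAC peak in 1 library, and 34.7% of them reached 1 TPM. In bulk samples, RNA from few cells and little RNA per cell cannot be told apart, so a low level at an open start may come from either.

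**Figure D1:**
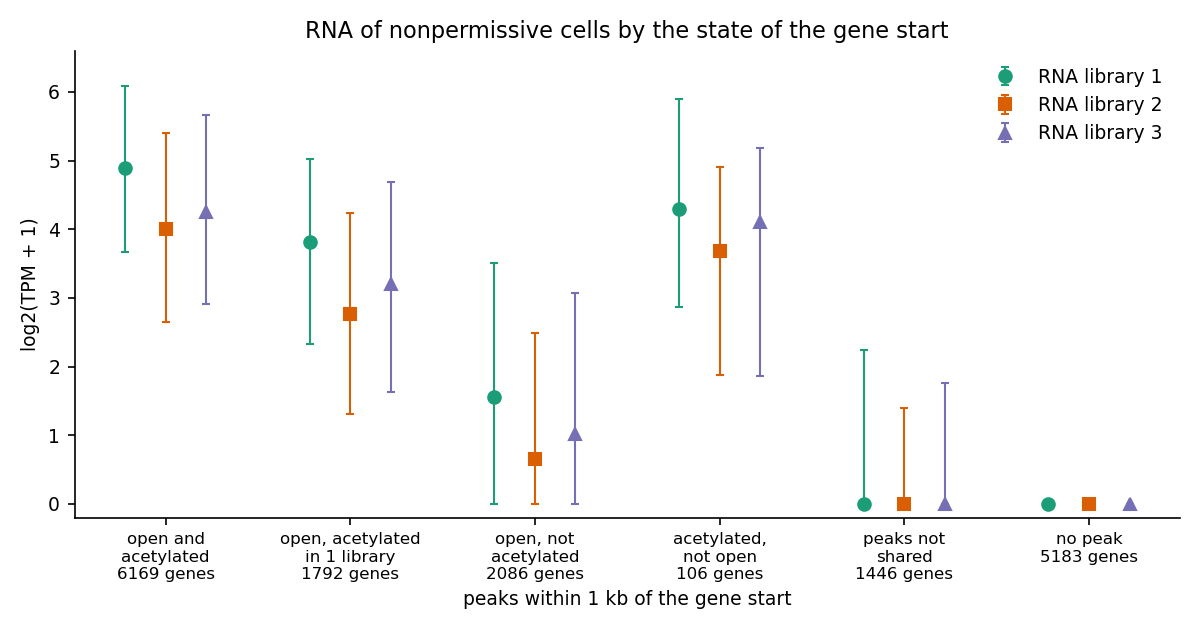
Level of RNA (log2(TPM + 1), vertical axis) of protein-coding genes in the 3 nonpermissive RNA libraries, by the peaks within 1 kb of the gene start (horizontal axis). Points are medians over genes and bars run from the 25th to the 75th percentile; in each library the 6169 open and acetylated genes lie above the 2086 genes that were open and not acetylated, and the 5183 genes with no peak lie at 0.

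RNA of acetylated genes was also the less variable between libraries. Among genes at 1 TPM or more, the median coefficient of variation over the 3 libraries was 47.7% for open and acetylated genes and 65.6% for open genes without H3K27ac. The latter also had lower RNA levels, at which counts vary more, and the part of the level in this spread was not tested.

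Read from the RNA side, open starts became common at lower levels of RNA than acetylated starts. Of the 10028 genes at 1 TPM or more, 86.2% were open and 60.7% acetylated. Of the 5011 genes at 0 TPM in all 3 libraries, 11.2% were open, 1.84% were acetylated and 76.3% had no peak of either assay. When the genes above 0 TPM were divided into 10 bins of equal size, the share of open starts was 45.2% in the lowest bin (median 0.187 TPM), 75.1% in the third (2.92 TPM) and 92.1% in the highest (159 TPM). The share of acetylated starts was 8.15%, 34.6% and 81.9% in the same bins. From the fifth bin, at 9.69 TPM, to the highest, the share of open starts went from 88.3% to 92.1% and that of acetylated starts from 59.0% to 81.9%. H3K27ac library 1 alone gave a higher share than library 2 in every bin, with 52.5% against 38.7% in the third bin.

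**Figure D2:**
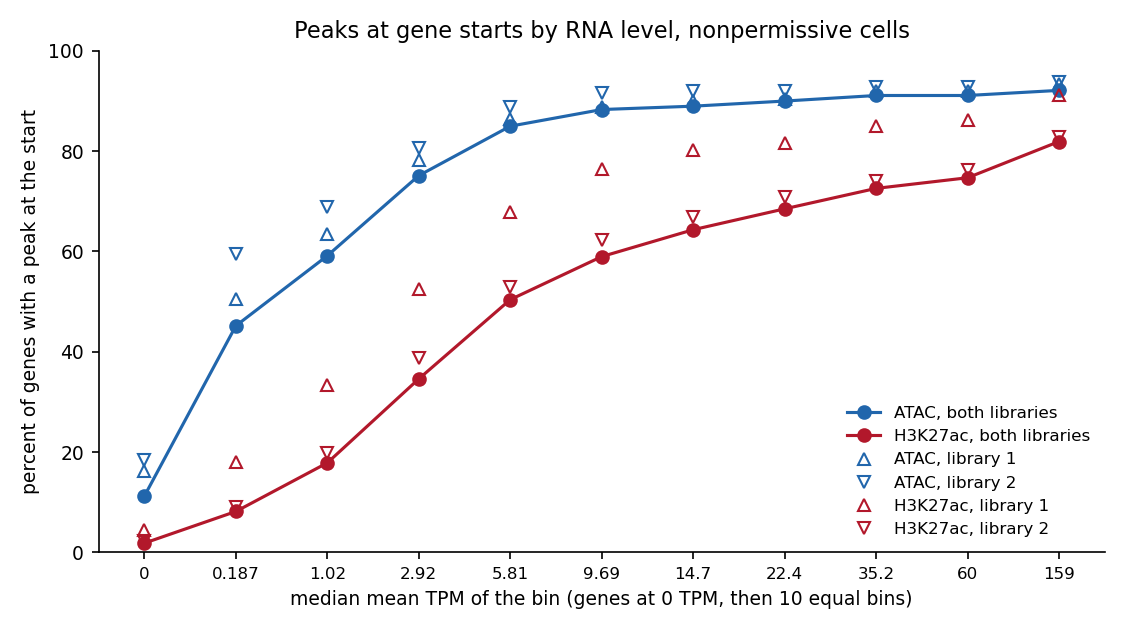
Percent of gene starts with an ATAC (blue) or H3K27ac (red) peak within 1 kb (vertical axis) for genes at 0 TPM and for 10 bins of genes above 0 TPM, labelled by their median mean TPM (horizontal axis). Filled circles and lines are regions shared by both libraries and open triangles single libraries; the blue line reaches 85.0% by the fourth bin, where the red line is at 50.4%.

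Across the 16782 genes, mean TPM had a rank correlation of 0.648 with the ATAC fold at the start, of 0.695 with the H3K27ac fold, of 0.451 with the number of shared ATAC regions within 100 kb and of 0.523 with the number of shared H3K27ac regions within 100 kb. These describe genes that share libraries and neighbours, and genes are not independent replicates. Within the open and acetylated genes the same 4 values were -0.05, 0.15, 0.13 and 0.15. Within the 5183 genes with no peak at the start, the numbers of ATAC and H3K27ac regions within 100 kb correlated with TPM at 0.426 and 0.415. The ATAC value was close to the 0.451 over all genes, and the H3K27ac value was below the 0.523 over all genes. How many annotated genes lay within 100 kb had a rank correlation of -0.04 with TPM, of 0.38 with the number of ATAC regions and of 0.28 with the number of H3K27ac regions. In genes with 1 to 4, 5 to 9, and 10 or more annotated genes within 100 kb, the number of H3K27ac regions correlated with TPM at 0.586, 0.521 and 0.556.

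The median level was higher for genes with more acetylated regions around them. It was 0 TPM for the 3878 genes with no shared H3K27ac region within 100 kb, 9.44 TPM for 4874 genes with 3 to 5 regions, 15.7 TPM for 3554 genes with 6 to 10 regions, and 25.2 TPM for the 58 genes with 16 or more. In those 58 genes the median was 35.7, 15.8 and 25.8 TPM in the 3 libraries. For ATAC the medians were 0 TPM for 1869 genes without a region, 3.17 TPM for 3 to 5 regions and 12.8 TPM for 1878 genes with 16 or more, and that last group had a median of 14 annotated genes within 100 kb. Both counts include regions at the gene's own start, so they partly repeat its state. With only regions farther than 2 kb from a start, the H3K27ac count correlated with TPM at 0.376 against 0.523 with all regions. The ATAC count did so at 0.382 against 0.451.

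Open regions near starts were more often acetylated than those farther away. Of 20441 shared ATAC regions within 2 kb of an annotated start, 49.2% overlapped a shared H3K27ac region, and of 32394 farther away 26.9% did. The distal open regions with a shared H3K27ac region had a median ATAC fold of 3.52 and 5.90 in libraries 1 and 2, and those with no H3K27ac peak at all had 2.90 and 4.43. Seen from the mark, 88.4% of acetylated regions near starts and 55.5% of distal ones overlapped a shared ATAC region. Regions with an overlap were also wider, with a median of 492 against 318 bases for the distal ATAC regions, and a wider region has more room to overlap.

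The DNA of the starts differed between these groups. Vertebrate genomes have lost most CpG dinucleotides through methylation, and promoters of broadly used genes keep them in CpG islands. For 15057 of the gene starts a RefSeq promoter (GRCm38.p6) was matched within 1 kb. Its 300 bases ran from 250 before to 50 after the promoter's own start, which can differ from the gene's 5′ end. The ratio of observed to expected CpG there had a median of 0.813 in open and acetylated genes. It was 0.659 in open genes without H3K27ac and 0.161 in genes with no peak. The median over all promoters was 0.606. A ratio of at least 0.6 was found in 83.3%, 58.0% and 4.2% of these groups. Of 186 promoters without a peak and with a ratio of at least 0.6, 21.5% belonged to genes at 1 TPM or more, so most CpG-rich promoters without a peak lacked RNA. Among open and acetylated genes, the 165 with a ratio under 0.3 had a median of 10.4 TPM against 23.5 TPM for the 4864 with a ratio of at least 0.6, yet genes at 100 TPM or more made up 12.1% of the former and 13.9% of the latter.

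**Figure D3:**
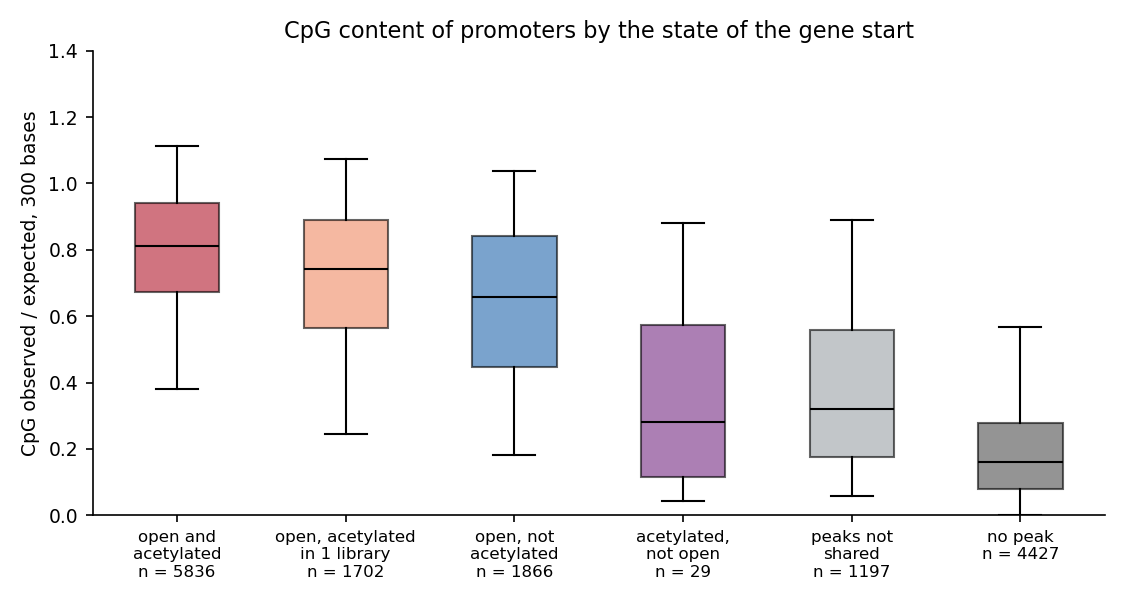
Ratio of observed to expected CpG in the 300 bases of the matched promoter (vertical axis) by the peaks of nonpermissive cells at the gene start (horizontal axis, with the number of promoters). Boxes run from the 25th to the 75th percentile with the median as a line, and whiskers from the 5th to the 95th percentile; the medians run from 0.813 in open and acetylated genes to 0.161 in genes with no peak.

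The promoters of 9 genes show how the groups look in sequence. Each line below gives the 250 bases before the matched promoter start, 5′ to 3′ on the strand of the gene, with every CpG in capitals. For B3gnt2 and Rad51ap2 that start lies inside the gene, past the 5′ end used for the peaks (chr11:22860336 and chr12:11456023). Tecta (chr9:42401691-42401940, minus strand) and Tectb (chr19:55180476-55180725, plus strand), which encode the tectorins of the tectorial membrane, were open and acetylated with some of the highest TPM of the genes analysed and have 5 and 3 CpG in these bases. Id2 (chr12:25096093-25096342, minus strand), an inhibitor of basic helix-loop-helix factors, had the same state and 18 CpG. B3gnt2 (chr11:22859736-22859985, minus strand), a glycosyltransferase gene, was open and acetylated with 0 TPM and has 31 CpG. Neurod1 (chr2:79456637-79456886, minus strand), a neurogenic transcription factor, and Rad51ap2 (chr12:11455805-11456054, plus strand), a gene of meiotic recombination, were open without H3K27ac and at 0 TPM, with 22 and 20 CpG. Epyc (chr10:97643818-97644067, plus strand), which encodes the proteoglycan epiphycan, had 112 to 295 TPM without a shared region of ATAC at its start and has 2 CpG. Pax7 (chr4:139832969-139833218, minus strand), a regulator of muscle stem cells, had neither peaks nor RNA and has 13 CpG. Olfr703 (chr7:106844363-106844612, plus strand), an odorant receptor gene, was acetylated, with a fold of only 2.61 in library 2. It had no ATAC peak or RNA and has 0 CpG.
Tecta: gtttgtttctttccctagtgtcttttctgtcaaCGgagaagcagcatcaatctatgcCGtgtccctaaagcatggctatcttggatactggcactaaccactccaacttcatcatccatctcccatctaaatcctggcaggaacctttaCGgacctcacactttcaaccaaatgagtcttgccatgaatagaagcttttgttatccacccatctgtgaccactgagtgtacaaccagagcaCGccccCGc
Tectb: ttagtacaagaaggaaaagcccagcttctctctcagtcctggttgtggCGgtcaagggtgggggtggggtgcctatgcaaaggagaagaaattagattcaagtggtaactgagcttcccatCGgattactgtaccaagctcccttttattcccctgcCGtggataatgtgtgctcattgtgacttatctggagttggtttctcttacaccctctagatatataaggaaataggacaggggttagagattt
Id2: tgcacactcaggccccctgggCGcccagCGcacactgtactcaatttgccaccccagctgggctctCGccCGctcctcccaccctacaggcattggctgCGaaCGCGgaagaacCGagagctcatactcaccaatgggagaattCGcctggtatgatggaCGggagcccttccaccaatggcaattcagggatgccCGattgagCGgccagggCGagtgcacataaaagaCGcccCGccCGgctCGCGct
B3gnt2: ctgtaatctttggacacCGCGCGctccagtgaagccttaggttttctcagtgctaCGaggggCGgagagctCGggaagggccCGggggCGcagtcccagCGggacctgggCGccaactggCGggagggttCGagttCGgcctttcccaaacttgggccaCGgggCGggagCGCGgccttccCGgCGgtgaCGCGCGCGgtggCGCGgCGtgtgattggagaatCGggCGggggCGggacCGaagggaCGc
Neurod1: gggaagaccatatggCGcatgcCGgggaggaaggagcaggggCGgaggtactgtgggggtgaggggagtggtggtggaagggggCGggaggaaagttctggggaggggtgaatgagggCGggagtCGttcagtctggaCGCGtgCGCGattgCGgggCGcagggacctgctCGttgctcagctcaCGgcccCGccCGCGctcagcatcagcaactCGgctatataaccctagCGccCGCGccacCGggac
Rad51ap2: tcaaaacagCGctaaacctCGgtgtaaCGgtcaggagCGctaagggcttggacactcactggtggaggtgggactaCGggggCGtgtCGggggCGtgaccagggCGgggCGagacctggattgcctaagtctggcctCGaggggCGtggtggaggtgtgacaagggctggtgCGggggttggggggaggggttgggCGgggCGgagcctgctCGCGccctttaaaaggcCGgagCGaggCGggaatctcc
Epyc: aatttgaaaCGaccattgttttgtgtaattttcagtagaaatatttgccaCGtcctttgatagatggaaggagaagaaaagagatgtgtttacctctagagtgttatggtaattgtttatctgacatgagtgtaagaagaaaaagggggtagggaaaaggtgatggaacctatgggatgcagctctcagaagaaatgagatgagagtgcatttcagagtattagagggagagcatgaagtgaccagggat
Pax7: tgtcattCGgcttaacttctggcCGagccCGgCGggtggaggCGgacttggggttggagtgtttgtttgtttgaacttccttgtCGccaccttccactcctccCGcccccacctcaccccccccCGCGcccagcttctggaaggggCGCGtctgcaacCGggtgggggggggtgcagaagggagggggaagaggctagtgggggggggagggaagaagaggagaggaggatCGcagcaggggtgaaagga
Olfr703: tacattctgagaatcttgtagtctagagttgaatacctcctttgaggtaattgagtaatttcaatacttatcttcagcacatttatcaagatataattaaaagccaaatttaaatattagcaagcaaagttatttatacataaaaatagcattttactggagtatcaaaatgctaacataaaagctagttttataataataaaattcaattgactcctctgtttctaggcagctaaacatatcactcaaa

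Short motifs were then searched on both strands of the 300 bases, and matches to different motifs may overlap. The GC box GGGCGG was in 69.7% of open and acetylated promoters, 65.0% of open promoters without H3K27ac, 9.56% of promoters with no peak and 48.3% of all promoters. The ETS motif CCGGAAG was in 22.8%, 6.54%, 2.39% and 12.4% of the same groups. TATAAA was in 6.08%, 6.81%, 27.5% and 13.4%. TGGGAA, the core bound by RBPJ, the DNA-binding partner of Notch, was in 21.7%, 22.0%, 26.7% and 24.0%, and TGANTCA, the AP-1 motif, in 3.80%, 5.15%, 12.6% and 7.13%. A match says that the letters are present and nothing about binding, and base composition differs between the groups: median GC was 61.7%, 62.0% and 45.3% in the first 3.

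Markers of supporting cells were largely transcribed from open and acetylated starts. Of 22 listed supporting cell genes with a start in the table, 18 were open (59.9% of all genes), 15 were acetylated (37.9% of all genes) and 21 had a mean of at least 1 TPM (59.8% of all genes). Among all genes at 1 TPM or more, 86.2% were open and 60.7% acetylated, so the marking of the list was near that of other transcribed genes. The list had a median of 125 TPM, against 3.94 TPM over all genes, and its summed TPM over all 29 listed genes was 26910, 10600 and 15880 in the 3 libraries. Tectb had 13241, 6110 and 9050 TPM, and Tecta had 7273, 1520 and 2756 TPM. Both were highest in library 1 and lowest in library 2. Gjb2, encoding the gap junction protein connexin 26, had 1105, 533 and 549 TPM, and Gjb6, encoding connexin 30, had 238, 183 and 173 TPM. Both connexin genes, which are neighbours, were open and acetylated. Fgfr3, a receptor of pillar and Deiters' cells, had 262, 115 and 171 TPM, Gata3 had 540, 110 and 213 TPM, and Sox2, a factor of the prosensory lineage, had 81.4, 70.7 and 42.5 TPM, all from open and acetylated starts.

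A few supporting cell genes were transcribed with little or no acetylation at the start. Npy, encoding neuropeptide Y, had 114, 103 and 192 TPM from an open start without an H3K27ac peak in either library, and no shared H3K27ac region within 100 kb. Ngfr, the p75 neurotrophin receptor gene, had 60.3, 35.5 and 24.3 TPM from a start of the same state. Epyc, shown above for its promoter, had 190, 295 and 112 TPM, an ATAC peak in library 2 only and an H3K27ac peak in library 1 only. Prox1, a homeobox gene of pillar and Deiters' cells, had 76.4, 20.0 and 28.2 TPM and an H3K27ac peak in 1 library. Pax2 was the listed gene under 1 TPM, with 0.42, 0.22 and 0.31 TPM. Another 7 listed genes have no start in the table and were read from RNA alone, among them Sox9 with 253, 114 and 116 TPM and Lgr5, a marker of progenitor-like supporting cells, with 201, 66.5 and 81.0 TPM.

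**Figure D4:**
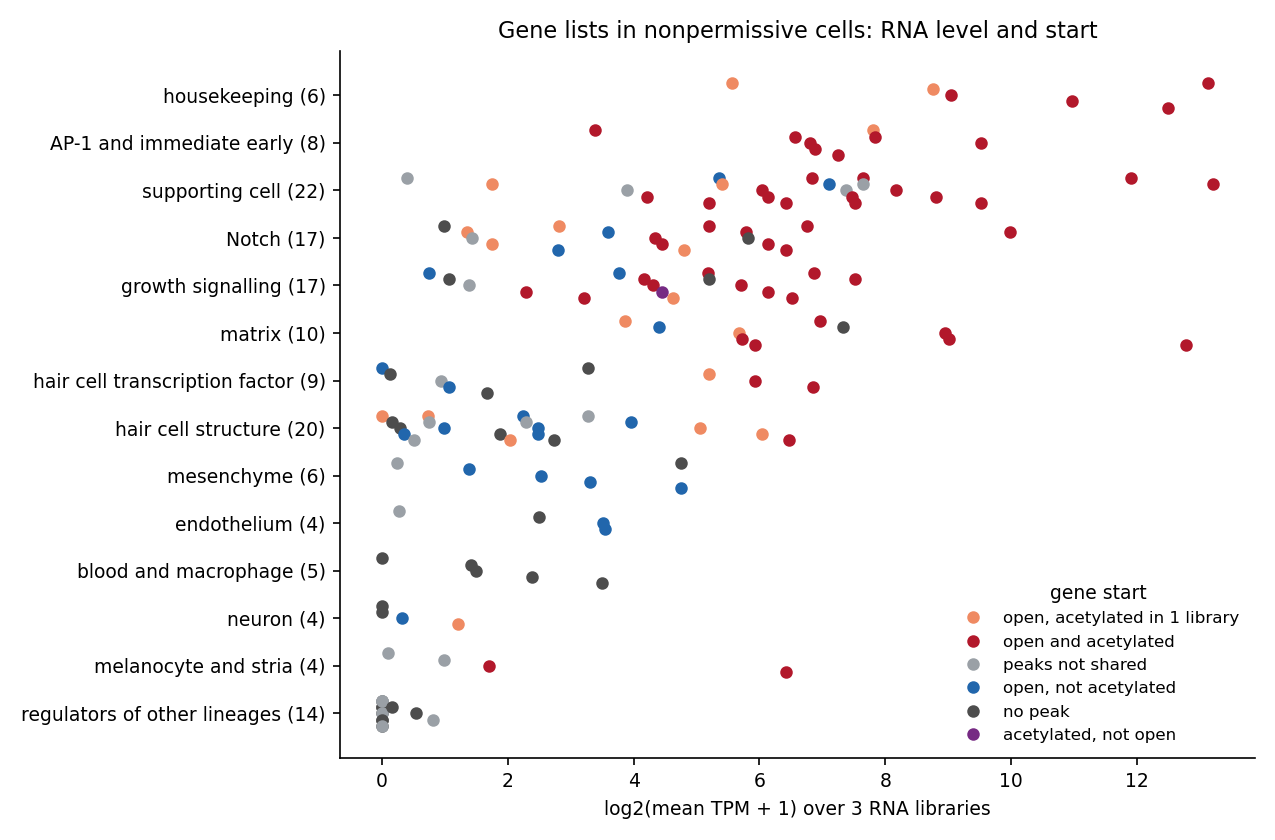
Level of RNA (log2(mean TPM + 1) over 3 libraries, horizontal axis) of the genes of 14 lists, 1 point per gene, coloured by the peaks at the gene start, with the number of genes with a start in brackets. Red points (open and acetylated) are most of the supporting cell list (14 of 22) and 1 of 20 hair cell structure genes, and none of the 14 regulators of other lineages was open.

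Notch pathway genes ranged widely, and the target Hes5 was among the lowest, below the also listed Hes1, Hey1, Hey2, Heyl and Nrarp. Of 17 with a start, 14 were open (59.9% of all genes), 8 acetylated (37.9% of all genes) and 16 at 1 TPM or more (59.8% of all genes), with a median of 20.8 TPM. The acetylated share was thus not far from that of all genes, and it was below the 60.7% of genes at 1 TPM or more. Among ligands, Jag1 had 89.1, 63.4 and 54.6 TPM from an open and acetylated start, while Dll1, typical of nascent hair cells, had 8.81, 2.33 and 69.5 TPM from an open start acetylated in 1 library, so that library 3 stood apart. Dll3 and Dll4 had at most 1.65 and 2.74 TPM and no shared ATAC region. The receptor gene Notch1 had 117, 12.7 and 33.4 TPM from an open and acetylated start, and Notch2 and Notch3 had at most 3.27 and 8.90 TPM from open starts acetylated in 1 library. Lfng, the glycosyltransferase gene whose Cre line marks these cells, had 102, 47.8 and 105 TPM and 15 shared H3K27ac regions within 100 kb. Hes5, a repressor induced by Notch, had 4.56, 0 and 2.48 TPM from an open start acetylated in 1 library, with 2 shared H3K27ac regions and 21 ATAC regions within 100 kb. Hey2 had 68.4, 18.8 and 19.4 TPM and Nrarp 35.78, 2.41 and 24.15 TPM, both from open and acetylated starts. Hey1 had 153.74, 35.3 and 48.79 TPM, Hes1 26.01, 12.14 and 9.45 TPM, and Heyl 7.15, 2.21 and 8.76 TPM. These last genes have no start in the table. Id2, which is induced by BMP signals as well as listed here, had 1421, 866 and 743 TPM. Rbpj had 74.5, 24.5 and 66.5 TPM with no peak at the annotated 5′ end of the gene, and was open and acetylated at another annotated start.

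Hair cell genes were open about as often as all genes, and the structure genes were seldom acetylated in both libraries. Of 9 listed transcription factor genes with a start, 5 were open (59.9% of all genes), 2 acetylated (Isl1 and Hes6, 37.9% of all genes) and 6 at 1 TPM or more (59.8% of all genes). With any annotated start, 8 were open and 3 open and acetylated, since Gfi1 and Barhl1 were open and Rfx3 open and acetylated at another start. That rule raises the shares of other genes too. Among genes at 1 TPM or more, open starts went from 86.2% to 93.0% and acetylated starts from 60.7% to 65.7%. The shares of all genes under that rule were not taken. Atoh1, the factor that starts hair cell differentiation and whose GFP reporter was absent by the sort, had 34.3, 24.0 and 48.4 TPM. Its start was open in both ATAC libraries, with a highest fold within 1 kb of 4.29 and 6.28. In library 2 that fold was in a peak from -1.53 to -0.911 kb, and a peak from -0.267 to -0.034 kb had 6.12. The start carried an H3K27ac peak in library 1 (fold 3.84) and none in library 2. Library 2 of H3K27ac had no peak within 100 kb of Atoh1 at all, whereas library 1 had 7. Open regions in both ATAC libraries lay 5.16 to 5.94 kb downstream of the start and 70.1 to 70.9 kb downstream, and library 1 of H3K27ac had a peak at each. Pou4f3, needed for hair cell survival, had 24.8, 21.9 and 28.3 TPM and no start in the table. Gfi1 had 1.00, 1.05 and 0.73 TPM and no shared region at its 5′ end. Barhl1 and Lhx3 had at most 3.42 and 1.81 TPM.

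Of 20 hair cell structure genes with a start, 12 were open and 12 reached 1 TPM, shares near the 59.9% and 59.8% of all genes. Only 1 of the 20 was acetylated in both libraries, against 37.9% of all genes, and 2 were open and acetylated when any annotated start was used. Ush1c, Slc26a5, Chrna10, Cib2 and Tmie were open with an H3K27ac peak in 1 library, the state of 10.7% of all genes. The median of the list was 3.42 TPM. Myo7a, the hair bundle myosin, had 4.36, 3.14 and 6.34 TPM from an open start without H3K27ac, and the tip link gene Cdh23 had 2.86, 0 and 0.09 TPM from a start of the same state. Espn, an actin bundling gene of stereocilia, had 6.61, 2.56 and 2.01 TPM and was open without H3K27ac, with 22 ATAC regions within 100 kb. The acetylated gene was Myo6, with 175, 49.4 and 38.6 TPM, which is also transcribed in other epithelia. Slc26a5, encoding the outer hair cell motor prestin, was listed at 0 TPM in all 3 libraries and was open, with H3K27ac in 1 library. Ocm and Chrna9 were uneven, with 0, 16.9 and 0 TPM and 0, 18.5 and 7.67 TPM. The 24 listed hair cell structure genes with an identifier summed to 379, 212 and 228 TPM, and the part of hair cells in the sorted samples was not tested.

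The immediate early genes formed the list with the most complete marking. All 8 AP-1 and immediate early genes with a start were open (59.9% of all genes), 7 were acetylated (37.9%) and 8 reached 1 TPM (59.8%). They had a median of 134 TPM and a median of 9 shared H3K27ac regions within 100 kb, against 3 over all genes. Fos had 1063, 639 and 487 TPM, Fosb had 333, 41.3 and 77.6 TPM, and Junb had 409, 84.0 and 186 TPM. Their products are transcription factors that cells make soon after growth factors or stress. All 3 were highest in library 1. Of 17 growth signalling genes, 13 were open (59.9% of all genes), 11 acetylated (37.9%) and 16 at 1 TPM or more (59.8%). Fgf10 had 144, 66.3 and 61.4 TPM and Etv5, a target of FGF signals, had 115, 33.5 and 60.3 TPM, both from open and acetylated starts. Bmp4 had 2.98, 0 and 0.31 TPM and no peak. Of 10 matrix genes, 9 were open (59.9% of all genes) and 6 acetylated (37.9%), among them Sparc with 8051, 4574 and 8401 TPM. Col9a1 had 218, 137 and 124 TPM with no peak at its annotated 5′ end and was open and acetylated at another start. Of 6 housekeeping genes, 6 were open (59.9% of all genes) and 4 acetylated (37.9%). Hprt, with 41.6, 60.1 and 37.9 TPM, had an H3K27ac peak in library 1 only and no shared H3K27ac region within 100 kb. Most members of the growth signalling, matrix and housekeeping lists had RNA. Their marking was nearer to that of genes at 1 TPM or more, of which 86.2% were open and 60.7% acetylated.

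Markers of other cell types had low RNA in most cases, and no start in the blood, endothelial, mesenchymal, neuronal and glial lists had shared acetylation. These lists have only 5, 4, 6, 4 and 1 genes with a start. Lum, Dcn, Erbb3 and Sox10 have none, so their acetylation was not read. Over all genes 59.9% were open, 37.9% acetylated and 59.8% at 1 TPM or more. None of the 5 blood and macrophage genes with a start was open, although 4 reached 1 TPM, such as Laptm5 with 12.7, 2.40 and 15.9 TPM. The summed TPM of all 7 blood and macrophage genes was 44.1, 7.05 and 41.4, and Hba-a1 was at 0. Of 4 endothelial genes, 2 were open and 0 acetylated, and Kdr had 14.0, 2.79 and 15.1 TPM. The 6 listed endothelial genes summed to 117, 22.5 and 73.0 TPM. Both lists were lowest in library 2. Of 6 mesenchymal genes, 4 were open and 0 acetylated, and Col3a1 had 32.5, 14.5 and 30.9 TPM with no ATAC or H3K27ac region within 100 kb. The 10 listed mesenchymal genes summed to 1561, 2068 and 1275 TPM, of which Lum had 1049, 1510 and 766 and Dcn had 422, 533 and 411, while Col1a1 had 0.32, 0 and 0.54. The 7 neuronal genes summed to 5.62, 8.13 and 0.95 TPM, with Prph and Th at 0. The 4 Schwann and satellite glia genes summed to 343, 106 and 219 TPM, mostly from Erbb3 and Sox10, of which Sox10 is also in the supporting cell list. The 6 melanocyte and stria genes summed to 150, 64.4 and 53.3 TPM, nearly all from Kcnj10, and Kcne1 was at 0. Of 4 genes of this list with a start, 2 were open and acetylated, Kcnj10 with 145, 61.8 and 46.2 TPM and Mitf with 2.08, 1.78 and 2.93 TPM. The part of such cells in the low levels of RNA at unmarked starts was not tested.

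Regulators of unrelated lineages with a start in the table had neither shared peaks at it nor RNA at 1 TPM. Of 14 such genes, among them Pax7, Nkx2-1, Cdx2, Hnf4a and Foxa2, 0 were open (59.9% of all genes), 0 acetylated (37.9%) and 0 at 1 TPM or more (59.8%). In all 3 libraries 11 of them were at 0 TPM (29.9% of all genes). No peak in any library was found at the starts of 9, and others, such as Pax6 and Neurog1, had peaks that were not shared. Gata1 and Pou5f1 were open at another annotated start, with 0 TPM. Of the 6 listed genes without a start, Sox17, a factor of endoderm and endothelium, had 4.42, 2.16 and 0.30 TPM and the others were under 1 TPM. Of 22 Hox genes with a start, 4 were open (59.9% of all genes), 0 acetylated (37.9%) and 1 at 1 TPM or more (59.8%). Of 922 odorant receptor genes, 1 was open (59.9% of all genes), 2 were acetylated (37.9%) and 917 were at 0 TPM in all 3 libraries (29.9%).

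The gene with the most acetylated regions around it was a neighbour of Tecta. By acetylated bases within 100 kb, Cradd with 65796 and Sipa1l1 with 59542 were above this neighbour, Tbcel, with 54251. Tbcel (chr9, next to Tecta) had the most shared H3K27ac regions within 100 kb, with 27, and had 84.5, 44.8 and 34.9 TPM. Tecta itself had 21, over 39240 acetylated bases. The other named genes, taken in order of count with at least 200 kb between them, were Itpkb with 26 regions, Tmem117 and Cradd with 23, Tsen15 and Sipa1l1 with 22, Capn12 with 21, Jmjd1c with 20, and Cnn3 and Ptma with 19. Their own RNA ranged widely. Cnn3, the actin-binding protein calponin 3, had 1055, 441 and 530 TPM, and Tsen15, a subunit of the tRNA splicing endonuclease, had 365, 656 and 542 TPM. Capn12, a calpain gene, had 0.90, 0.43 and 1.17 TPM with 21 regions around it and 13 annotated genes within 100 kb. Tmem117 had 120, 71.7 and 48.3 TPM from an open start with no H3K27ac peak in either library.

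The surroundings with the most open regions were gene-rich. The 10 named genes by shared ATAC regions within 100 kb were Efna4 and Btn2a2 with 32, Fosb with 31, Brd2 with 30, Ifrd2, Avil and Fgf22 with 29, and Nol12, Vasn and Irf2bpl with 28. They had 8 to 59 annotated genes within 100 kb, against 2 to 13 for the 10 genes named by H3K27ac. Brd2, encoding a reader of acetylated histones, had 208, 49.6 and 175 TPM and a high H3K27ac fold at its start, 25.4 and 12.4. Btn2a2, near a histone gene cluster, had 0.32, 0 and 0 TPM, and Avil and Fgf22 had at most 0.86 and 0 TPM with 29 regions around them. The level that 3 counts would give was 0.968 TPM for Btn2a2, 1.30 TPM for Avil and 6.76 TPM for Fgf22, so the zeros of the latter 2 do not place them under 1 TPM.

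When acetylated regions within 10 kb of each other were joined, 15950 domains resulted, of which 293 held at least 10 kb of acetylated DNA. These 293 held 12.6% of all acetylated bases, and 182 of them had no protein-coding gene start inside. The 143 genes that started in the others had a median of 45.2 TPM, with quartiles of 17.4 and 142 TPM, against 21.6 TPM for the other open and acetylated genes. The acetylated bases of a shared region include those in a peak of 1 library only. The count of 293 therefore depends on both H3K27ac libraries. With library 1 alone 1126 domains passed, and with library 2, the sparser list, alone 65. With joining within 5 kb, 192 passed.

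The domain with the most acetylated DNA lay inside Zbtb20 (chr16:43501038-43605091), a zinc finger repressor gene, with 62.4 kb acetylated. Library 1 alone gave 75.3 kb there and library 2 gave 34.6 kb, and Zbtb20 had 244, 64.8 and 178 TPM. The second lay inside Tox (chr4:6905603-6991625), a high mobility group factor gene, with 49.8 kb and 159, 72.5 and 181 TPM. The next were inside Sipa1l1 (chr12) with 49.3 kb, Mctp1 (chr13) with 48.1 kb and Colgalt2 (chr1), a collagen galactosyltransferase gene, with 39.8 kb. The sixth held the starts of Tecta and Tbcel (chr9:42390808-42472776), with 18 acetylated and 11 open regions and 37.7 kb. Further domains held the starts of Nr2f1 (chr13), which encodes the orphan nuclear receptor COUP-TF1, with 36.2 kb and 235, 125 and 144 TPM, and of Tspan14 and Sh2d4b (chr14) with 34.7 kb. The ninth held the start of Epha7 (chr4), an ephrin receptor gene, with 34.6 kb, and the tenth that of Gata3 (chr2:9866752-9926997), a factor required for the cochlea, with 33.5 kb. All 10 domains had more acetylated DNA in library 1 than in library 2. The genes that span these domains ranged from 1.5 TPM (Sh2d4b) to 3850 TPM (Tecta) in mean.

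**Figure D5:**
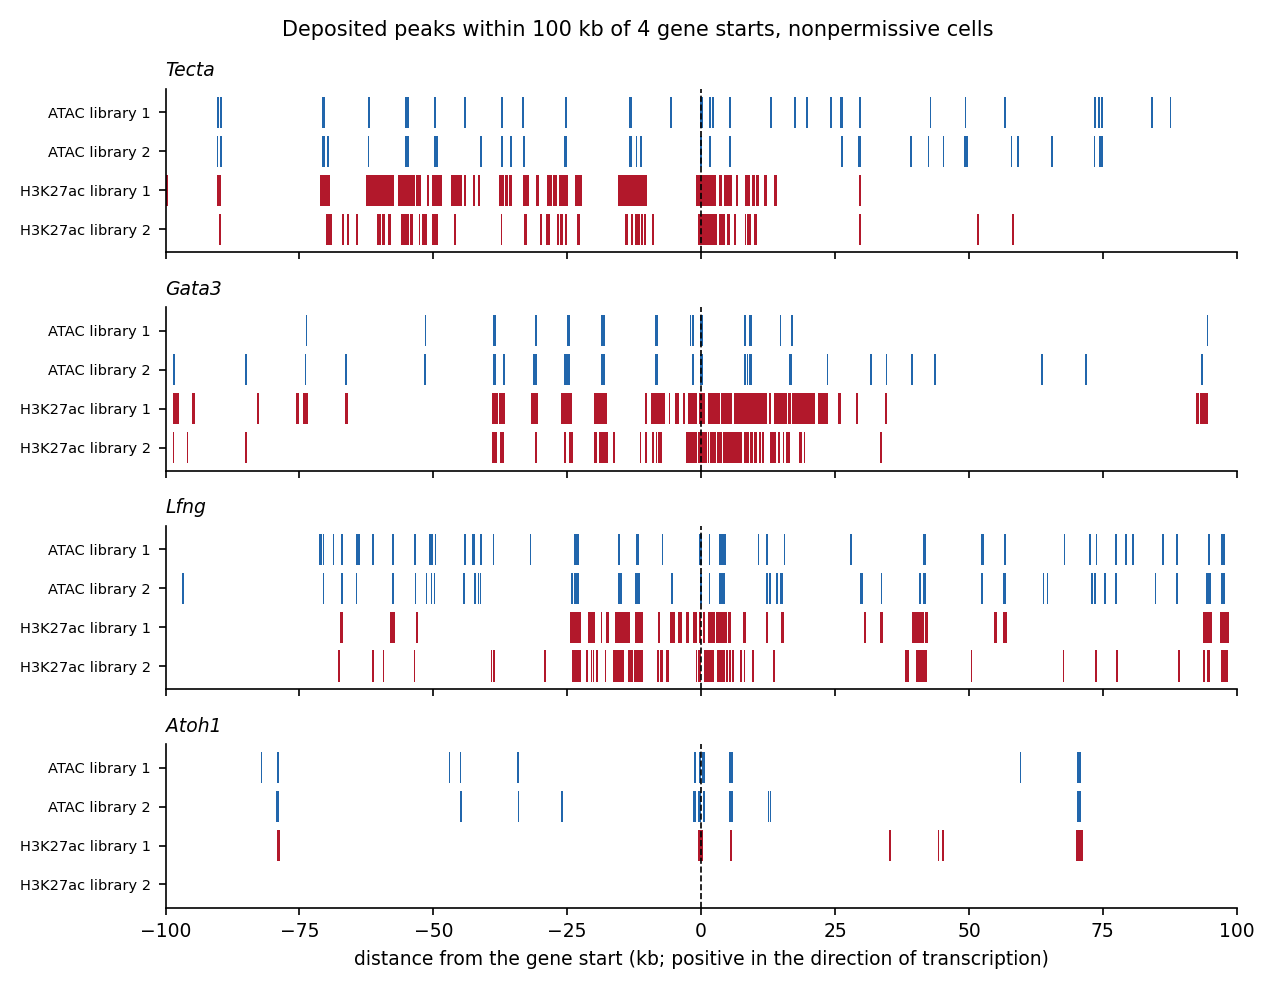
Deposited ATAC (blue) and H3K27ac (red) peaks of each library (rows) by distance in kb from the starts of Tecta, Gata3, Lfng and Atoh1 (horizontal axis, positive in the direction of transcription; a peak is drawn at least 0.3 kb wide). H3K27ac peaks cover 43.4 and 24.0 kb around Tecta and 41.8 and 23.5 kb around Gata3 in libraries 1 and 2, and around Atoh1 4.28 kb in library 1 and none in library 2.

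The shape of the marking differed between these loci. Around Tecta most acetylated DNA lay before the start, towards Tbcel, and the ATAC peaks were spread over the whole window. Around Gata3 acetylated peaks lay on both sides of the start. The highest fold in library 1, 18.0, was in a peak from -19.9 to -17.6 kb, before the start, and the highest after the start was 13.6, in a peak from 6.05 to 9.97 kb. Lfng had 41 and 44 ATAC peaks over 13.6 and 15.5 kb and 28.6 and 25.5 kb of acetylated DNA. Atoh1 had 12 and 13 ATAC peaks over 3.94 and 4.27 kb.

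RNA was listed at 0 TPM in all 3 libraries for 78 genes whose start was open and acetylated. In this group 82.1% had another annotated start within 5 kb, against 50.7% of open and acetylated genes at 1 TPM or more, and there the marks of a gene and of its neighbour cannot be told apart. With library 1 of H3K27ac alone, 147 genes met the rule. The limit that 3 counts would set had a median of 3.05 TPM in this group, and it was above 1 TPM for 9 of the 10 genes named below. Histone genes, a family chosen after its values were seen, were 22 of the 78. Of 58 genes of the replication-dependent and linker histone families with a start, 31 were open and acetylated (36.8% of all genes). At 0 TPM in all 3 libraries were 38 of the 58 (29.9% of all genes). Messages of replication-dependent histones end in a stem-loop rather than a poly(A) tail, and many of these genes are near-identical copies between which reads cannot be told apart, so their zeros are uncertain.

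Of the 78, 14 had no other start within 5 kb. The 10 named by the number of acetylated regions around them were Tsnaxip1, Tmem274, B3gnt2, Pin4, Gm13420, Gm10509, Vamp9, Defb47, Cyp2w1 and Cldn20. Tsnaxip1 (chr8) had ATAC folds of 11.3 and 13.4, H3K27ac folds of 13.3 and 4.57 and 11 shared H3K27ac regions within 100 kb, and 3 counts would have given at most 1.47 TPM. B3gnt2 (chr11) had ATAC folds of 8.24 and 7.69 and H3K27ac folds of 5.32 and 5.22, and a limit of 0.799 TPM. Pin4 (chrX), a prolyl isomerase gene, had ATAC folds of 6.32 and 13.5 and H3K27ac folds of 5.62 and 5.22, with a limit of 6.30 TPM. For Defb47 and Gm10509, whose limits were 44.1 and 32.3 TPM, a zero says little.

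A larger group was open without acetylation and without RNA. It held 403 genes, 266 of them with no other start within 5 kb. The 10 with the strongest ATAC peaks among the latter were Rad51ap2, Mnd1, Zim1, Trim9, 5730507C01Rik, Myocos, Slc35f4, Grm8, Sec14l5 and Ntn5. Rad51ap2 (chr12) had ATAC folds of 11.8 and 12.4, which are above the median of 8.40 of open and acetylated genes, no H3K27ac region within 100 kb and a limit of 0.645 TPM. Mnd1, which like Rad51ap2 acts in meiotic recombination, had folds of 10.8 and 14.4, and Zim1, an imprinted zinc finger gene, had 10.3 and 19.2. Trim9 and Grm8, a ubiquitin ligase and a glutamate receptor of neurons, had 9.87 and 16.5, and 7.74 and 10.5, with 2 ATAC regions and 0 H3K27ac regions within 100 kb each. Neurod1 belonged to the 403 with weaker peaks, 2.74 and 3.24. Of 361 promoters in this group, 38.2% had a CpG ratio of at least 0.6, against 67.1% of open genes without H3K27ac at 1 TPM or more and 3.11% of genes with no peak and 0 TPM.

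Acetylation without an ATAC peak and without RNA was found at 6 genes: Pth2r, Olfr703, Ube2d2b, Hrc, Smim38 and Vpreb1. At Olfr703 (chr7) the H3K27ac folds were 9.16 and 2.61. In library 2, peaks of fold 2.61 around Gata3 and Lfng had a −log10 q of 0.46, the lowest value of that list. At Smim38 (chr7) library 1 had a fold of 44.9 and library 2 had no peak within 1 kb, since the shared region reached the window through library 1 alone, and the same held for Vpreb1 and Ube2d2b. Ube2d2b, Hrc, Smim38 and Vpreb1 thus rest on 1 library within the window.

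The reverse case, RNA without any peak at the gene's 5′ end, held 795 genes at 1 TPM or more. For 436 of them another annotated start was open, and for 322 no annotated start had a peak. The 10 with the most RNA were Fth1, H3f3b, App, Tm4sf1, Ppp1cc, Tgfb2, Tmem254c, Rpl22, Tpm3 and Ano1. Of these, Fth1, the ferritin heavy chain gene, with 2537, 1419 and 3336 TPM, H3f3b, App, Ppp1cc, Tgfb2, Rpl22 and Tpm3 were open and acetylated at another annotated start, Tm4sf1 was acetylated and Ano1 open at one. Tmem254c (chr14), with 545, 679 and 403 TPM, had no region of either assay within 100 kb. It is one of several near-identical gene copies, and the division of reads between copies is uncertain in both kinds of data. By contrast, the 10 with the most RNA among the 16782 genes analysed, from S100a1 (12660, 38830 and 50250 TPM) and Tectb to Rpl26, were all open, and 9 of them were acetylated. The other, the ribosomal protein gene Rps3a1, had an H3K27ac peak in library 1 only.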

How the data were processed

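RNA, ATAC and H3K27ac CUT&RUN were deposited as 1 table per sample. Per the submitters' processing notes STAR, RSEM, DESeq2, Bowtie2, MACS2 and UMI-tools were used on build mm10. Of these tools the role, version and settings were not given in the sources used here. Expected counts and TPM per gene are the authors' deposited values, in the layout of RSEM. The peak lists hold for each peak the authors' deposited fold enrichment (a ratio over local background), −log10 p-value and −log10 q-value, and the ATAC lists reach down to a −log10 p of 2.00.

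From these, summits of 1 peak were collapsed, overlapping peaks of both libraries were merged into shared regions, and regions were counted around gene starts with Python 3.11.15 and pandas 2.3.3. The start is the 5′ end of the RefSeq gene. Of 48709 identifiers, 99.3% matched a symbol, and 333 genes were matched through a RefSeq synonym. TPM was averaged over 3 libraries without a filter or pseudocount. No test was run, since no groups were compared, and all values are descriptions. The scripts were tested on simulated intervals.

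The members, lists and rules for named genes were chosen with earlier results of these data known. Named genes were the 10 at the top of each ranking given in the text, densely marked genes being at least 200 kb apart, together with members of the lists. Alternatives covered the q-value, the overlap, the window, the start, the TPM minimum, the gene set and each library left out. Some listed markers are not reported here and were left out of their lists.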

Additional observations from a re-analysis of the deposited data

How the results depend on the processing

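No paired analysis was possible because no groups were compared and no result comes from a test. None of the 4 correlations changed sign, which counts and percentages cannot do. Of 111 values under alternatives, 67 stayed within the spread between libraries or, for counts, within 1.5 times. With peaks of −log10 q of 5 or more, 23572 ATAC and 5365 H3K27ac regions were shared, 76.8% of genes at 1 TPM were open and 26.3% acetylated, 22 open and acetylated genes were at 0 TPM, 1270 genes had RNA without a peak, the correlations with H3K27ac fold and number were 0.643 and 0.402, and 59 large domains remained. The share of open genes at 1 TPM was 83.3% and 89.5% with windows of 500 bases and 2 kb. With any annotated start it was 93.0%, genes with RNA and no peak numbered 322, and the correlations with ATAC and H3K27ac fold were 0.692 and 0.737. At a minimum of 5 TPM, 89.6% were open, 68.1% acetylated and 451 had no peak; at 0.1 TPM 81.5% were open and 1261 had no peak. Among genes above 0 TPM the 4 correlations, in the order of the report, were 0.332, 0.499, 0.186 and 0.305. Over all annotated genes 243 open and acetylated genes were at 0 TPM, and the correlation with the number of H3K27ac regions was 0.501. Within 50 kb the correlations with the number of ATAC and H3K27ac regions were 0.484 and 0.571, and with regions farther than 2 kb from a start 0.382 and 0.376. Joining within 5 kb gave 192 domains. The cause was not tested for any of these, apart from the fewer peaks or genes that a setting leaves.

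Without single libraries the number of ATAC regions was 110121 to 126982 and of H3K27ac regions 46148 to 93854, since peaks of 1 library then stand alone. Open genes at 1 TPM made up 86.0% to 89.4% and acetylated ones 60.3% to 75.2%. Open and acetylated genes at 0 TPM numbered 81 to 147, and genes with RNA and no peak 727 to 984. The correlations ranged from 0.634 to 0.651 (ATAC fold), 0.625 to 0.700 (H3K27ac fold), 0.428 to 0.456 (ATAC number) and 0.509 to 0.539 (H3K27ac number), and large domains from 65 to 1126. Depth limits a TPM of 0 to under a median of 2.09 TPM over genes at 0, the level 3 counts would give, for counting error only.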
